A study of Mus musculus with 21 samples.

Results

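Between embryonic day 18.5 (E18.5) and postnatal day 28 (P28) the lung epithelium and the lung fibroblasts both changed, and the genes described here are those whose change was not the same in both cell types. They were chosen by the difference in change, (P28 minus E18.5 in epithelium) minus (P28 minus E18.5 in fibroblasts), tested as an interaction. It was called for 2049 of 12395 genes tested, among 20004 genes listed in both cell types' tables. A positive difference means that the gene rose more, or fell less, in epithelium, and a negative one that it rose more, or fell less, in fibroblasts. Genes that moved in opposite directions and genes that moved together in both cell types are described beside them.

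All 4 groups held cells sorted from lungs. The mice were C57BL/6 and had a Col1a2-GFP transgene, a green fluorescent reporter driven by a promoter of the type I collagen gene Col1a2, and each group had 2 libraries. Epithelial cells were Epcam+ cells without the lineage markers CD31, CD45, Ter119 and CD146. They were also GFP-negative at P28, whereas the E18.5 epithelial label names no GFP gate. Fibroblasts were lineage-negative, Epcam-negative, GFP+ cells at P28 and at E18.5, so cells of the mesenchyme that did not express the reporter were not collected. The labels name no separate animals or pools, so p-values measure the spread between these libraries, which may be technical.

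Around birth the lung fills with air, and in the weeks after it the distal sacs are divided into alveoli. Epithelial type 2 cells make surfactant and type 1 cells form the thin gas-exchange surface, while fibroblasts lay down elastic fibres and collagen and supply growth factors such as insulin-like growth factor 1 (Igf1). Many fetal growth genes, among them imprinted genes expressed from one parental copy, are known to be turned down in several organs after birth.

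The 8 libraries held 2423876 to 3759066 reads, recovered from the deposited normalised values, in 14980 to 17156 genes with at least 1 read. Values are joint CPM, that is, recovered reads per 1000000 after scaling all libraries of both cell types together. Changes and their differences are on the log2(joint CPM + 1) scale. This scale shrinks changes at low levels and, for a gene near 0 in one cell type, mostly carries the change in the other. Epcam, the gating gene of the epithelial sort, had 72.3 and 229.6 joint CPM in P28 epithelium and 45.3 and 126 in E18.5 epithelium, with replicate 2 higher at both stages. Epcam had 0 and 0.394 joint CPM in P28 fibroblasts and no read in E18.5 fibroblasts. Cdh1, the epithelial cadherin, had 146 and 131 joint CPM in P28 epithelium and 212 and 195 in E18.5 epithelium, and no read in any of the 4 fibroblast libraries. Col1a1 had 1.41 and 0.276 joint CPM in P28 epithelium and 14.6 and 15.2 in E18.5 epithelium, against 2675 and 1975 in P28 fibroblasts and 1232 and 1384 in E18.5 fibroblasts. Markers of cells that the gates should remove were present and moved with stage. The summed level of 14 leukocyte genes was 5176 to 5191 joint CPM in P28 epithelium, against 350 to 579 in E18.5 epithelium. It was 76.7 and 202 in P28 fibroblasts, against 5.95 to 25.4 in E18.5 fibroblasts, with the higher P28 value in replicate 2. Lyz2, which type 2 cells also express, made up 2935 and 2869 of the P28 epithelial sums. C1qa of the same list was lower at P28 in epithelium, with 27.9 and 30.0 joint CPM against 65.9 and 173, a change that was not called. A separate list of 9 neutrophil and lymphocyte genes summed to 801 to 927 joint CPM in P28 epithelium, against 5.66 to 19.7 in E18.5 epithelium. They summed to 55.6 and 127 in P28 fibroblasts, against 1.21 to 2.70 in E18.5 fibroblasts, where 8 of the 9 had no read. Ptprc, which encodes the CD45 of the lineage gate, had 11.3 and 20.4 joint CPM in P28 epithelium, against 0.317 and 1.19 in E18.5 epithelium, and 1.74 and 7.09 joint CPM in P28 fibroblasts, against no read in E18.5 fibroblasts. The sums of 10 erythroid genes were 1497 and 1649 joint CPM in P28 epithelium, 915 and 2868 in E18.5 epithelium, 682 and 2883 in P28 fibroblasts and 613 and 863 in E18.5 fibroblasts, with 1 library in each of 2 groups standing apart. Endothelial genes were at 158 to 207 joint CPM in P28 epithelium, 203 in both E18.5 epithelial libraries, 104 to 109 in P28 fibroblasts and 55.6 to 68.1 in E18.5 fibroblasts. These sums did not come from Pecam1, which encodes the CD31 of the lineage gate, or from Cdh5, another endothelial gene. Pecam1 had 2.12 and 0.276 joint CPM in P28 epithelium, 0.868 and 1.97 in P28 fibroblasts, and no read at E18.5. Cdh5 had 0.394 joint CPM in P28 fibroblast replicate 2 and no other read in the libraries compared here. In these sorted populations, fewer cells of a type and less RNA per cell cannot be told apart.

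**Figure D1:**
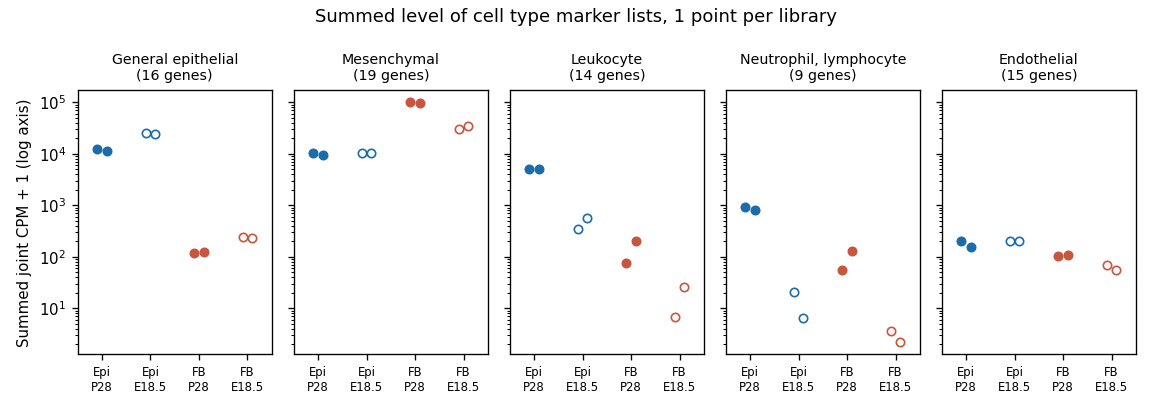
Summed level of 5 marker lists in each of the 8 libraries, on a log axis of joint CPM + 1. Points are libraries, with epithelium left of fibroblasts and P28 left of E18.5 within each; the neutrophil and lymphocyte sums are 801 to 927 in P28 epithelium, 5.66 to 19.7 in E18.5 epithelium, 55.6 and 127 in P28 fibroblasts and 1.21 to 2.70 in E18.5 fibroblasts.

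Of the 12395 genes, 16.5% had a called difference in change (limma, Benjamini-Hochberg adjusted p under 0.05). It was positive for 714 genes (5.76%) and negative for 1335 (10.8%). With libraries scaled by total reads alone the split was 1070 positive and 1079 negative, and the median of all genes moved to 0.14, against -0.05 in the main scaling. Under that scaling the median epithelial change was 0.13, against -0.00436, so the excess of negative calls depends on the scaling. The change itself was called in epithelium for 2923 genes (23.6%; 1496 rose, 12.1%, and 1427 fell, 11.5%). In fibroblasts it was called for 4078 genes (32.9%; 2409 rose, 19.4%, and 1669 fell, 13.5%). Among the genes with a called difference, 537 had a called change in epithelium alone and 1027 in fibroblasts alone, 188 moved in opposite directions, 199 moved the same way by unequal amounts, and 98 had a called difference with neither change called. Among 5713 genes that reached a group mean of 10 joint CPM in both cell types, at either stage, 1019 (17.8%) had a called difference, 342 positive (5.99%) and 677 negative (11.9%). Of these, edgeR on the recovered reads also called 886 (86.9%), but only 475 of the other 1030 (46.1%).

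**Figure D2:**
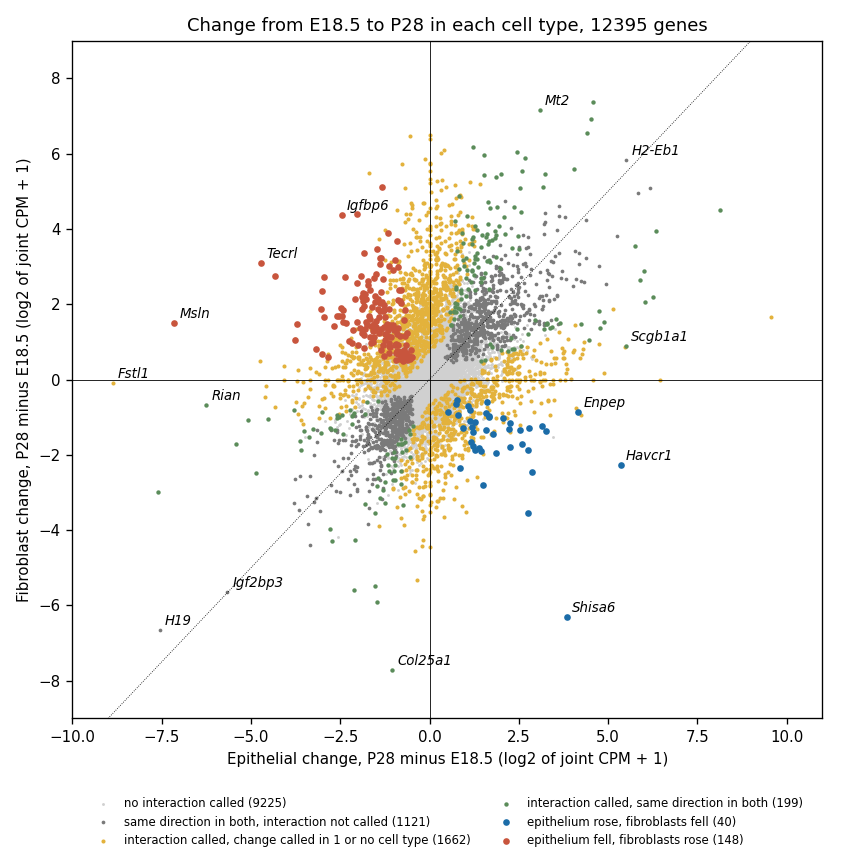
Change between E18.5 and P28 in epithelium (horizontal axis) and in fibroblasts (vertical axis) for the 12395 genes tested, both as differences of log2(joint CPM + 1). Each point is a gene and colour gives its class; the opposite movers lie in the lower right (40 that rose in epithelium) and upper left (148 that fell in epithelium), and genes that moved together lie near the diagonal.

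The most negative difference belonged to Fstl1, which encodes a secreted glycoprotein that binds BMP and activin-type ligands (chr16:37776873-37836514, plus strand, build mm10). It had 14.5 and 17.4 joint CPM in P28 epithelium, against 8323 and 7524 in E18.5 epithelium. It had 3928 and 5325 joint CPM in P28 fibroblasts, against 4317 and 5493 in E18.5 fibroblasts. The 4 epithelial libraries fall into separate stages and the 4 fibroblast libraries overlap. Epithelial Fstl1 fell 498-fold, and the difference in change was -8.78 ± 0.27 (SE; adjusted p = 1.42e-14). At E18.5 the epithelial libraries were above the fibroblast libraries. Col1a1 in the same E18.5 epithelial libraries was at 1.14% of its fibroblast level. The part of fibroblast RNA in the epithelial Fstl1 values was not tested. The P28 epithelial label names a GFP gate and the E18.5 one does not, so between E18.5 and P28 stage and gate cannot be told apart. Epithelial labels of the later stages name that gate too, and Fstl1 levels at those stages are given with its course below.

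Other large negative differences had a fibroblast rise on top of an epithelial fall or beside a low epithelial level. Msln, the surface protein mesothelin, had 1.06 and 3.31 joint CPM in P28 epithelium, against 418 and 419 in E18.5 epithelium. It had 33.9 and 20.9 joint CPM in P28 fibroblasts, against 8.65 and 8.87 in E18.5 fibroblasts, and both changes were called. The difference was -8.64 ± 0.74 (adjusted p = 1.02e-07). Msln also marks mesothelium. The summed level of 13 mesothelial genes was 4222 to 4769 joint CPM in P28 epithelium, against 17382 to 18045 in E18.5 epithelium. Most of that sum came from the keratins Krt7 and Krt19, which epithelium also expresses, with 10777 and 10045 (Krt7) and 6813 and 6857 (Krt19) joint CPM in E18.5 epithelium. Upk3b, Lrrn4 and Wt1 of the same list were at 0 to 0.95 joint CPM in the 4 epithelial libraries. In P28 fibroblasts Upk3b had 8.68 and 5.90 joint CPM, against 0 and 1.21 in E18.5 fibroblasts. Lrrn4 had 7.23 and 3.54 there, against 0.811 and 0, and Wt1 had 1.16 and 1.18, against 0.270 and 0. The mesothelial sum was 879 to 883 joint CPM in P28 fibroblasts, against 374 to 445 in E18.5 fibroblasts. The part of mesothelial cells in the Msln values was not tested. Aqp1, a water channel, had 3.53 and 4.41 joint CPM in P28 epithelium, against 111 and 85.8 in E18.5 epithelium, and 10.7 and 13.8 joint CPM in P28 fibroblasts, against 0.270 and 2.02 in E18.5 fibroblasts. Its epithelial libraries were high at E18.5 and its fibroblast libraries at P28, with a difference of -7.06 ± 0.76 (adjusted p = 1.75e-06). Tecrl, a reductase of fatty acyl chains, followed the same pattern, with 4.94 and 1.65 joint CPM in P28 epithelium, against 121 and 88.2 in E18.5 epithelium, and 51.2 and 38.97 joint CPM in P28 fibroblasts, against 3.24 and 5.64 in E18.5 fibroblasts. Sod3, the extracellular superoxide dismutase, was low throughout epithelium, with 0.706 and 0.551 joint CPM at P28 and 1.27 and 1.49 at E18.5. It had 339 and 286 joint CPM in P28 fibroblasts, against 2.70 and 2.42 in E18.5 fibroblasts, which gave a difference of -7.00 ± 0.51 (adjusted p = 1.23e-08). Col15a1 (-7.17), Pi16 (-5.98), Hr (-6.52) and Tnfsf13b (-5.78), which encode a basement membrane collagen, a marker of adventitial fibroblasts, a nuclear receptor corepressor and the B cell factor BAFF, were also called in fibroblasts alone.

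On the positive side, Shisa6, a single-pass membrane protein of the Shisa family (chr11:66211725-66525964, minus strand), moved in opposite directions. It had 14.8 and 16.5 joint CPM in P28 epithelium, against 0.317 and 0 in E18.5 epithelium. Neither P28 fibroblast library held a read, and the E18.5 fibroblast libraries had 89.2 and 68.1. Both changes were called in opposite directions, with a difference of 10.16 ± 0.59 (adjusted p = 5.05e-10) whose size depends on the pseudocount because 1 group was at 0. Havcr1, a phosphatidylserine receptor, had 34.6 and 45.8 joint CPM in P28 epithelium, against 0 and 0 in E18.5 epithelium, and 0 and 0 joint CPM in P28 fibroblasts, against 5.14 and 2.82 in E18.5 fibroblasts. Its difference was 7.63 ± 0.54 (adjusted p = 9.31e-09). Enpep, glutamyl aminopeptidase, was abundant in both cell types (chr3:129269175-129332720, minus strand). It had 193 and 192 joint CPM in P28 epithelium, against 11.1 and 8.64 in E18.5 epithelium, and 235 and 261 joint CPM in P28 fibroblasts, against 434 and 477 in E18.5 fibroblasts. Epithelial libraries were 19.5-fold higher at P28 and fibroblast libraries 1.84-fold lower, and the difference was 5.04 ± 0.35 (adjusted p = 7.95e-09). Scgb3a1, a club cell secretoglobin, had the second largest value, 7.91 ± 1.44, with 2938 and 4988 joint CPM in P28 epithelium, against 1.27 and 10.4 in E18.5 epithelium, but its 2 E18.5 epithelial libraries differed and edgeR did not call it (adjusted p = 1). Col25a1, a transmembrane collagen, is a further case that edgeR did not call (adjusted p = 0.991), with 0 and 0 joint CPM in P28 epithelium, against 0.951 and 1.19 in E18.5 epithelium, and 0 and 0.394 joint CPM in P28 fibroblasts, against 261 and 233 in E18.5 fibroblasts. Il12b (6.47), Havcr2 (4.62) and Ccl5 (3.65), all known from leukocytes, were among the large positive values, but edgeR called none of them (adjusted p = 1, 0.931 and 0.840). The Ccl5 difference turned negative with edgeR (-1.09) and DESeq2 (-0.45). The leukocyte sums given above were higher in P28 epithelium than in E18.5 epithelium, and their part in these results was not tested.

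Opposite movers numbered 188, of which 155 had the difference and both changes called by edgeR as well, and 112 reached 10 joint CPM in both cell types. In 148 (1.19% of genes tested) the gene fell in epithelium and rose in fibroblasts, and in 40 (0.323%) it rose in epithelium and fell in fibroblasts. Of the 148, 121 had a higher mean in epithelium than in fibroblasts at E18.5, and 52 did at P28. Their median level was 15.2 joint CPM in P28 epithelium and 51.5 in E18.5 epithelium, and 41.8 in P28 fibroblasts and 12.3 in E18.5 fibroblasts. The order of the cell types was reversed between the stages in 69 of them. Of the 40, 30 had a higher mean in epithelium at P28 and 3 at E18.5, and the order was reversed in 27. Their medians were 20.5 joint CPM in P28 epithelium, 4.92 in E18.5 epithelium, 6.93 in P28 fibroblasts and 25.7 in E18.5 fibroblasts. In 10 of the 148, among them Col1a1 (1.14%), Col1a2 (1.06%), Col3a1 (1.06%), Igf1 and Fbln1, the E18.5 epithelial mean was under 5% of the E18.5 fibroblast mean. The part of fibroblast RNA in the epithelial values of these genes was not tested.

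Igfbp6, which encodes an insulin-like growth factor binding protein with a preference for Igf2, was abundant in both cell types (chr15:102144362-102149511, plus strand). It had 872 and 806 joint CPM in P28 epithelium, against 4424 and 4737 in E18.5 epithelium. Fibroblasts showed the reverse, with 3214 and 3515 joint CPM in P28 fibroblasts, against 139 and 185 in E18.5 fibroblasts. No 2 groups overlapped: epithelial libraries were 5.46-fold lower at P28, fibroblast libraries 20.8-fold higher, and the difference was -6.83 ± 0.25 (adjusted p = 1.94e-13). Kdr, a receptor of vascular endothelial growth factor that endothelium also expresses, had 2.12 and 11.6 joint CPM in P28 epithelium, against 44.4 and 22.1 in E18.5 epithelium, and 5.50 and 7.48 joint CPM in P28 fibroblasts, against 0.270 and 0 in E18.5 fibroblasts, and moved the same way as Igfbp6. The endothelial sums given above were higher in P28 than in E18.5 fibroblasts, where Pecam1 and Cdh5 were at 0 to 1.97 joint CPM. The part of endothelial cells in the Kdr value was not tested. Zfp521, a zinc finger regulator of mesenchymal and neural lineages, had 1.41 and 0.276 joint CPM in P28 epithelium and 16.8 and 10.1 in E18.5 epithelium. Zfp521 had 54.4 and 57.5 joint CPM in P28 fibroblasts, against 8.38 and 12.5 in E18.5 fibroblasts, again opposite in direction. Ank, a pyrophosphate transporter, Gper1, a membrane oestrogen receptor, Adamtsl5, a matrix protein, and P2rx6, an ATP-gated channel, did likewise, with differences of -4.24, -4.60, -6.41 and -6.45.

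Plin2, the coat protein of lipid droplets, moved the other way. It had 616 and 566 joint CPM in P28 epithelium, against 193 and 199.7 in E18.5 epithelium, and 522 and 473 joint CPM in P28 fibroblasts, against 1366 and 1146 in E18.5 fibroblasts. Epithelial libraries were 3.01-fold higher at P28 and fibroblast libraries 2.53-fold lower, so that the cell types were closer at P28 than at E18.5 (difference 2.91 ± 0.23, adjusted p = 3.77e-08). Il16, a cytokine, had 8.82 and 10.8 joint CPM in P28 epithelium, against 0.317 and 0.894 in E18.5 epithelium, and 22.9 and 22.8 joint CPM in P28 fibroblasts, against 87.6 and 85.1 in E18.5 fibroblasts. Sms, spermine synthase, had 22.9 and 21.2 joint CPM in P28 epithelium, against 2.22 and 6.26 in E18.5 epithelium, and 4.63 and 3.15 joint CPM in P28 fibroblasts, against 15.9 and 15.3 in E18.5 fibroblasts. Adam19, a membrane metalloprotease, had 22.9 and 34.2 joint CPM in P28 epithelium, against 9.83 and 8.94 in E18.5 epithelium, and 1.16 and 1.18 joint CPM in P28 fibroblasts, against 11.9 and 16.5 in E18.5 fibroblasts. In these 3 genes the higher stage was P28 in epithelium and E18.5 in fibroblasts, with no overlap within a cell type. They were named for called changes of opposite sign. Of all genes tested, stages did not overlap for 58.9% in epithelium and 62.6% in fibroblasts. Plekho1 and Clip2, which encode cytoskeletal adaptors, differed by 3.35 and 3.20. Cd24a, a glycoprotein of epithelial progenitors, is a case of a fall in fibroblasts alone, with 81.5 and 86.6 joint CPM in P28 epithelium and 54.5 and 73.9 in E18.5 epithelium, beside 3.76 and 7.48 in P28 fibroblasts and 71.4 and 86.7 in E18.5 fibroblasts.

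**Figure D3:**
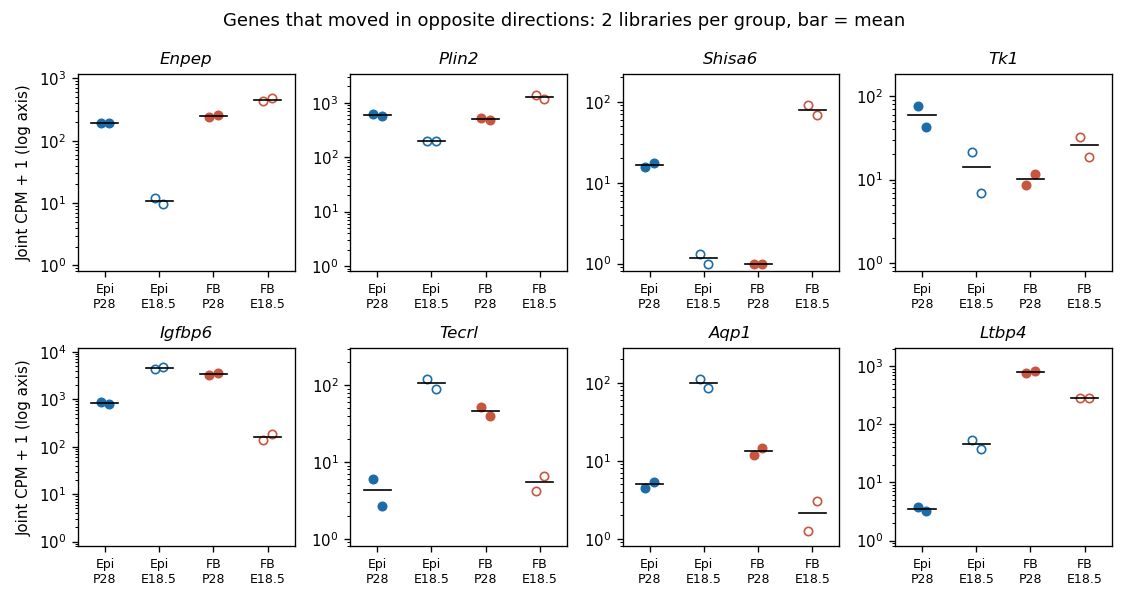
Levels of 8 opposite movers in each of the 8 libraries, on a log axis of joint CPM + 1, with epithelium left of fibroblasts and P28 left of E18.5. Points are libraries and bars their means; Igfbp6 is at 872 and 806 in P28 epithelium and 4424 and 4737 in E18.5 epithelium, and at 3214 and 3515 in P28 fibroblasts and 139 and 185 in E18.5 fibroblasts.

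Of 15 insulin-like growth factor genes tested, 9 had a negative and 2 a positive difference, against 10.8% and 5.76% of all genes, and edgeR also called these 11. In epithelium 1 rose and 6 fell, against 12.1% and 11.5% of all genes. In fibroblasts 8 rose and 2 fell, against 19.4% and 13.5%, so the count of falls there is near the background. The median difference was -1.60, against -0.05 over all genes. Among ligands, Igf1 had 0 and 0.827 joint CPM in P28 epithelium, against 1.27 and 2.09 in E18.5 epithelium, beside 402 and 440.5 in P28 fibroblasts and 40.01 and 51.6 in E18.5 fibroblasts. Igf2, the fetal ligand, fell in both, with 0 and 1.65 joint CPM in P28 epithelium, against 54.2 and 39.3 in E18.5 epithelium, and 2.60 and 2.76 joint CPM in P28 fibroblasts, against 25.1 and 15.3 in E18.5 fibroblasts; its difference was -2.37 ± 0.58 (adjusted p = 0.00744). Among receptors, Igf1r fell in epithelium alone, with 26.5 and 40.2 joint CPM in P28 epithelium, against 88.1 and 114 in E18.5 epithelium, and 92.6 and 90.9 joint CPM in P28 fibroblasts, against 129 and 119.7 in E18.5 fibroblasts. Igf2r, the imprinted receptor that clears Igf2, fell in fibroblasts alone (chr17:12682406-12769664, minus strand). It had 109 and 117 joint CPM in P28 epithelium, against 130.0 and 137 in E18.5 epithelium, and 124 and 140.1 joint CPM in P28 fibroblasts, against 1202 and 1184 in E18.5 fibroblasts. The fibroblast fall was 9.02-fold, and the cell types were close at P28 (difference 2.93 ± 0.23, adjusted p = 3.00e-08). Among the binding proteins, Igfbp5 and Igfbp6 were opposite movers. Igfbp5 had 15.2 and 19.3 joint CPM in P28 epithelium, against 30.4 and 51.9 in E18.5 epithelium, and 266 and 229.9 joint CPM in P28 fibroblasts, against 13.5 and 18.5 in E18.5 fibroblasts. Igfbp3 and Igfbp7 rose in fibroblasts alone, Igfbp7 having 108 and 125 joint CPM in P28 epithelium, against 128 and 105 in E18.5 epithelium, beside 469 and 456 in P28 fibroblasts and 53.8 and 59.3 in E18.5 fibroblasts. Igfbp2 rose in epithelium alone, at a low level (8.47 and 13.2 joint CPM in P28 epithelium and 1.90 and 1.19 in E18.5 epithelium).

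Of 18 imprinted growth genes tested, 12 fell and 1 rose in epithelium, where 11.5% of all genes fell, and 12 fell and 1 rose in fibroblasts, where 13.5% fell. The difference was negative for 8 and positive for 3, against 10.8% and 5.76% of all genes. Genes of the Dlk1-Dio3 cluster on chromosome 12 fell steeply in epithelium. Rian, a maternally expressed noncoding RNA (chr12:109603940-109661716, plus strand), had 33.2 and 34.7 joint CPM in P28 epithelium, against 2752 and 2550.2 in E18.5 epithelium, and 169.6 and 184 joint CPM in P28 fibroblasts, against 279 and 284 in E18.5 fibroblasts. Both changes were called, -6.25 ± 0.17 in epithelium and -0.67 ± 0.17 in fibroblasts, and the difference was -5.58 ± 0.25 (adjusted p = 4.34e-12). Meg3, a noncoding RNA of the same cluster (chr12:109541001-109571726, plus strand), had 68.4 and 70.02 joint CPM in P28 epithelium, against 1649 and 1752 in E18.5 epithelium, and 149.9 and 179.9 joint CPM in P28 fibroblasts, against 262 and 198 in E18.5 fibroblasts; only the epithelial change was called. Dlk1, the paternally expressed Notch-related ligand (chr12:109452823-109463336, plus strand), had no read in P28 epithelium, against 184 and 200.0 joint CPM in E18.5 epithelium, and 1.16 and 2.36 joint CPM in P28 fibroblasts, against 25.4 and 16.1 in E18.5 fibroblasts. At E18.5 these 3 were higher in epithelium than in fibroblasts in every library. Mest and Plagl1 went the other way. Mest, a hydrolase-like protein, had 3.88 and 6.89 joint CPM in P28 epithelium, against 33.3 and 49.2 in E18.5 epithelium, and 64.5 and 96.4 joint CPM in P28 fibroblasts, against 1355 and 1779.5 in E18.5 fibroblasts, and fell more in fibroblasts. Plagl1, a zinc finger activator of the imprinted network, had 98.1 and 69.7 joint CPM in P28 epithelium, against 66.6 and 102 in E18.5 epithelium, and 103 and 83.1 joint CPM in P28 fibroblasts, against 389 and 434 in E18.5 fibroblasts, and fell in fibroblasts alone. H19 and the cyclin-dependent kinase inhibitor Cdkn1c fell in both without a called difference, and are described with the shared genes. Peg10, a retrotransposon-derived gene, was the one member that rose in both (23.99 and 25.6 joint CPM in P28 epithelium and 2.85 and 2.98 in E18.5 epithelium, 15.9 and 7.87 in P28 fibroblasts and 4.60 and 1.21 in E18.5 fibroblasts).

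Of 19 elastic fibre genes tested, 11 had a negative and 1 a positive difference, against 10.8% and 5.76% of all genes, and the median difference was -1.19. In epithelium 9 fell, against 11.5% of all genes, and in fibroblasts 7 rose and 6 fell, against 19.4% and 13.5%. Eln, elastin itself, had 2.47 and 0 joint CPM in P28 epithelium, against 29.8 and 16.4 in E18.5 epithelium, and 338 and 595 joint CPM in P28 fibroblasts, against 2392 and 2908 in E18.5 fibroblasts. Lox, the cross-linking oxidase, had 15.5 and 13.8 joint CPM in P28 epithelium, against 164 and 154 in E18.5 epithelium, and 863 and 1399.5 joint CPM in P28 fibroblasts, against 6188 and 6875 in E18.5 fibroblasts. Both fell in both cell types, with differences of -1.08 ± 0.60 and -0.78 ± 0.29 that were not called. At E18.5 the epithelial levels of Eln and Lox were far below the fibroblast ones, and the part of fibroblast RNA in them was not tested. Ltbp4, a latent TGF-beta binding protein needed for elastic fibre assembly, was an opposite mover, with 2.82 and 2.21 joint CPM in P28 epithelium, against 53.6 and 37.3 in E18.5 epithelium, and 773 and 811 joint CPM in P28 fibroblasts, against 288 and 279.8 in E18.5 fibroblasts (difference -5.18 ± 0.36, adjusted p = 7.95e-09). Ltbp1 (-4.27) and the fibulin Fbln1 (-4.10) were opposite movers as well, from epithelial levels of 11.1 and 7.45 and 5.39 and 1.19 joint CPM at E18.5. Fbln5, which tethers elastin to cells, was abundant in both and fell more in epithelium. It had 549 and 514 joint CPM in P28 epithelium, against 2442 and 2232 in E18.5 epithelium, and 1172 and 1094 joint CPM in P28 fibroblasts, against 2223 and 2148 in E18.5 fibroblasts. Mfap5, Efemp1 and Fbln2 rose in fibroblasts alone, and Mfap2 fell there alone.

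Of 21 collagen and matrix genes, 8 had a negative and 1 a positive difference, against 10.8% and 5.76% of all genes, with a median of -0.88. In epithelium 9 fell and 1 rose, against 11.5% and 12.1% of all genes. In fibroblasts 5 rose and 2 fell, against 19.4% and 13.5% of all genes, which is near the background. The fibrillar collagen chains Col1a1, Col1a2 and Col3a1 rose in fibroblasts. Col3a1 had 9.88 and 11.6 joint CPM in P28 epithelium, against 38.04 and 28.02 in E18.5 epithelium, and 8595 and 7140.2 joint CPM in P28 fibroblasts, against 2949 and 3299.9 in E18.5 fibroblasts. Sparc, a collagen-binding glycoprotein, was expressed in both and rose in fibroblasts alone, with 8505 and 7272 joint CPM in P28 epithelium, against 10161 and 10189 in E18.5 epithelium, and 54756 and 54450.0 joint CPM in P28 fibroblasts, against 16490.0 and 19818 in E18.5 fibroblasts (difference -1.97 ± 0.24, adjusted p = 7.11e-06). The collagen VI chains Col6a1 and Col6a2 fell in epithelium alone, Col6a2 having 27.9 and 19.6 joint CPM in P28 epithelium, against 115 and 118 in E18.5 epithelium, and 489 and 415 joint CPM in P28 fibroblasts, against 601 and 628 in E18.5 fibroblasts. Col12a1 was the member with the positive difference, with 56.8 and 46.9 joint CPM in P28 epithelium, against 12.4 and 6.26 in E18.5 epithelium, and 38.2 and 27.9 joint CPM in P28 fibroblasts, against 20.8 and 18.5 in E18.5 fibroblasts. Of 17 markers of adventitial fibroblasts, which surround vessels and airways, 13 had a negative difference, against 10.8% of all genes, and 15 rose in fibroblasts, against 19.4%; the median difference was -2.49. The edgeR test also called 8 of the 13. Dcn, a proteoglycan that binds collagen, had 9.52 and 15.2 joint CPM in P28 epithelium, against 15.5 and 19.4 in E18.5 epithelium, beside 7144 and 11285 in P28 fibroblasts and 367 and 349 in E18.5 fibroblasts. Gsn, an actin-severing protein, had 7795 and 9317 joint CPM in P28 fibroblasts, against 727 and 879 in E18.5 fibroblasts, and Pi16 had 75.5 and 88.97 joint CPM in P28 fibroblasts, against 1.08 and 0 in E18.5 fibroblasts. Cd34 had 651 and 654 joint CPM in P28 fibroblasts, against 19.5 and 51.6 in E18.5 fibroblasts. P28 and E18.5 fibroblasts did not overlap for any of these 4. Stages did not overlap for 58.9% of all genes tested in epithelium and for 62.6% in fibroblasts.

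Of 26 cell cycle genes tested, 10 had a called positive difference, against 5.76% of all genes; 7 were also called by edgeR, and the median difference was 1.26. In epithelium 10 rose, against 12.1% of all genes. In fibroblasts 2 rose and 4 fell, against 19.4% and 13.5% of all genes, which is near or below the background. Levels were low in all groups. Top2a, the topoisomerase that untangles chromosomes, had 88.5 and 53.2 joint CPM in P28 epithelium, against 23.5 and 20.3 in E18.5 epithelium, and 20.8 and 11.4 joint CPM in P28 fibroblasts, against 16.2 and 22.6 in E18.5 fibroblasts. Mki67, the Ki-67 antigen of cycling cells, had 16.2 and 10.8 joint CPM in P28 epithelium, against 1.90 and 4.47 in E18.5 epithelium, and 4.05 and 1.57 joint CPM in P28 fibroblasts, against 2.97 and 4.03 in E18.5 fibroblasts. In both genes the P28 epithelial libraries were above the other 6. Tk1, thymidine kinase, moved in opposite directions, with 74.1 and 41.6 joint CPM in P28 epithelium, against 20.3 and 5.96 in E18.5 epithelium, and 7.52 and 10.6 joint CPM in P28 fibroblasts, against 31.6 and 17.7 in E18.5 fibroblasts. The difference was 3.53 ± 0.57 (adjusted p = 1.92e-04). Gins2, a subunit of the replicative helicase, had 51.5 and 38.6 joint CPM in P28 epithelium, against 6.02 and 1.79 in E18.5 epithelium, and 9.84 and 9.84 joint CPM in P28 fibroblasts, against 18.1 and 21.4 in E18.5 fibroblasts. Mcm3, another helicase subunit, had 5.997 and 6.89 joint CPM in P28 epithelium, against no read in E18.5 epithelium. Pcna, the sliding clamp, and Rrm1, a ribonucleotide reductase subunit, rose in both without a called difference. Of 12 leukocyte genes tested, 10 also rose in epithelium, and their part in these counts was not tested.

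The promoters of Mki67 and Top2a are shown because cell cycle genes are known to share 2 promoter elements, the cell cycle homology region (CHR) and the CCAAT box. The windows run 250 bases upstream to 50 bases downstream of the RefSeq start (GRCm38.p6), on the gene's strand, Mki67 at chr7:135716330-135716629 (minus strand) and Top2a at chr11:99024140-99024439 (minus strand). Capitals mark TTTGAA or its reverse complement TTCAAA (CHR) and CCAAT or its reverse complement ATTGG, none of which overlap.
Mki67: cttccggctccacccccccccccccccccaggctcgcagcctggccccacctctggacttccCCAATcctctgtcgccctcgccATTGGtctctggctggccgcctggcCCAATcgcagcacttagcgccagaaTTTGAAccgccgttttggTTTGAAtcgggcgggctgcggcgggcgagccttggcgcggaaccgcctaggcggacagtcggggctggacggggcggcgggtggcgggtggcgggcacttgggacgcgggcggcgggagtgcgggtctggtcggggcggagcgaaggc
Top2a: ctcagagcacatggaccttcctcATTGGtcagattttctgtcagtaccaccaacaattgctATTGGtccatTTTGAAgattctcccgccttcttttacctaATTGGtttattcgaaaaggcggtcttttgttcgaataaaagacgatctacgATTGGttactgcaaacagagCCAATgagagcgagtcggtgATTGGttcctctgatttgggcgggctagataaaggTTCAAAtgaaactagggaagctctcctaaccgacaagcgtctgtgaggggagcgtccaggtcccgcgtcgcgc
Mki67 held 2 CHR matches and 3 CCAAT matches, and Top2a held 2 and 6. Among the 21 tested members with a promoter in the table, 10 held a CHR match (47.6%), against 14.2% of the 8778 tested genes with a promoter. CCAAT matches were in 17 of the 21 (81.0%), against 42.2%. Among the 8 members with a called difference and a promoter, 4 held a CHR match and 6 a CCAAT match. The motifs were chosen after the expression values were seen, and a match is a description of the letters, not a site.

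Genes of the circadian clock, the daily oscillator of most cells, were listed together with genes induced by glucocorticoids. Of 21 tested, 10 rose and 2 fell in epithelium, 16 rose in fibroblasts, and 13 had a negative and 1 a positive difference, with a median of -1.64; edgeR also called 12 of these. Of all genes, 12.1% rose in epithelium, 19.4% rose in fibroblasts and 10.8% had a negative difference. Nr1d1, the clock repressor REV-ERB alpha, had 22.2 and 17.9 joint CPM in P28 epithelium, against 32.97 and 30.7 in E18.5 epithelium, and 71.8 and 71.6 joint CPM in P28 fibroblasts, against 2.43 and 2.42 in E18.5 fibroblasts. Its 4 epithelial libraries lay between the 2 fibroblast stages (difference -5.05 ± 0.66, adjusted p = 2.03e-05). Tef, a clock output transcription factor of the PAR bZIP family, had 797 and 612 joint CPM in P28 epithelium, against 833 and 854 in E18.5 epithelium, and 526 and 720.0 joint CPM in P28 fibroblasts, against 182 and 167 in E18.5 fibroblasts. Dbp, of the same family, rose in both, with 14.8 and 23.98 joint CPM in P28 epithelium, against 1.90 and 2.98 in E18.5 epithelium, and 29.2 and 33.5 joint CPM in P28 fibroblasts, against 0.541 and 0.403 in E18.5 fibroblasts. Bhlhe41, a repressor of the clock, had 4.23 and 3.31 joint CPM in P28 epithelium, against 8.56 and 4.47 in E18.5 epithelium, and 3.18 and 10.2 joint CPM in P28 fibroblasts, against 0.270 and 0 in E18.5 fibroblasts. Tsc22d3, the glucocorticoid-induced leucine zipper, had 950.3 and 1062 joint CPM in P28 epithelium, against 1210.1 and 1112 in E18.5 epithelium, and 3715 and 3472 joint CPM in P28 fibroblasts, against 1071 and 1132 in E18.5 fibroblasts. Mt2, a metallothionein, had 123 and 133 joint CPM in P28 epithelium, against 9.19 and 21.5 in E18.5 epithelium, and 258 and 168 joint CPM in P28 fibroblasts, against 0.541 and 0.403 in E18.5 fibroblasts, and rose in both with a difference of -4.06 ± 0.55 (adjusted p = 2.69e-05). Sgk1 and Errfi1 rose in both, and more in fibroblasts. Fkbp5, a further glucocorticoid target, had 14.1 and 15.4 joint CPM in P28 epithelium, against 25.05 and 25.6 in E18.5 epithelium, and 74.7 and 64.95 joint CPM in P28 fibroblasts, against 108 and 109 in E18.5 fibroblasts, with no change called. Per1 fell in epithelium alone, and its difference was not called. Cebpd, a transcription factor of the acute phase, was the exception, rising more in epithelium (279 and 355 joint CPM in P28 epithelium and 50.7 and 64.7 in E18.5 epithelium, 916 and 895 in P28 fibroblasts and 440.1 and 291 in E18.5 fibroblasts).

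The clock activators bind the E-box CACGTG, and the promoters of Tef (chr15:81802423-81802722, plus strand, 1 of 2 listed for the gene) and Bhlhe41 (chr6:145865371-145865670, minus strand) are shown because both rose in fibroblasts alone and hold it, in capitals.
Tef: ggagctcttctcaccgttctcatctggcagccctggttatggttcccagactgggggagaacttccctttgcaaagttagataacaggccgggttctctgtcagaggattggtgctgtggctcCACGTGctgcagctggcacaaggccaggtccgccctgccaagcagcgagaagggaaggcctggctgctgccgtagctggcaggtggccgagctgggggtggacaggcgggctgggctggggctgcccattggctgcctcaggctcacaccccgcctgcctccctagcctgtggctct
Bhlhe41: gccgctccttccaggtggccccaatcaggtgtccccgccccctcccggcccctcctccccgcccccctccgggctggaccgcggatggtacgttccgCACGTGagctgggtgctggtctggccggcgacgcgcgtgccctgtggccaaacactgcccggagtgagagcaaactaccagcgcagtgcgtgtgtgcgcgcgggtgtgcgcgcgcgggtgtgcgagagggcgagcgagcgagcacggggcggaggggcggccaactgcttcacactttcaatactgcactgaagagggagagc
Each held 1 match. Of the 17 tested members with a promoter, 7 held a match (41.2%), against 11.5% of the 8778 tested genes with one. Of the 12 with a called difference and a promoter, 3 did, a lower share than among the 17. The 2 genes shown were picked for their values and for holding the motif, and for Tef a listed promoter with a match was taken. A match is a description of the letters, not a site.

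Immediate early genes, which cells transcribe within minutes of stimulation, rose in epithelium in 8 of 21 cases, with 1 fall, and in fibroblasts in 19, against 12.1% and 19.4% of all genes. The difference was negative for 11, against 10.8% of all genes, all of them expressed in both cell types and also called by edgeR. Klf4 had 1174 and 1068 joint CPM in P28 epithelium, against 270.1 and 368 in E18.5 epithelium, and 3215 and 2683 joint CPM in P28 fibroblasts, against 274 and 169.7 in E18.5 fibroblasts. Atf3, a stress-induced transcription factor, had 194 and 141 joint CPM in P28 epithelium, against 136 and 119.8 in E18.5 epithelium, and 112 and 131 joint CPM in P28 fibroblasts, against 30.5 and 12.1 in E18.5 fibroblasts. Fosl2 had 14.1 and 19.02 joint CPM in P28 epithelium, against 14.6 and 18.2 in E18.5 epithelium, and 45.7 and 44.5 joint CPM in P28 fibroblasts, against 14.6 and 13.7 in E18.5 fibroblasts, so its epithelial libraries overlapped. Egr1, Jun and Fosb rose in both without a called difference, Egr1 having 421 and 443 joint CPM in P28 epithelium, against 128 and 139 in E18.5 epithelium, and 705 and 729 joint CPM in P28 fibroblasts, against 286 and 181 in E18.5 fibroblasts. Zfp36, which promotes decay of inflammatory mRNAs, differed through an epithelial fall, but its P28 replicates were far apart (2277 and 1068 joint CPM in epithelium and 1487 and 4788 in fibroblasts).

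Complement and chemokine genes had 15 negative differences among 18 tested, against 10.8% of all genes, with a median of -2.55. In epithelium 6 rose, against 12.1% of all genes, and in fibroblasts 16 rose, against 19.4%. Only 5 of the differences were also called by edgeR. C3, the central complement component, was measured in both. It had 71.3 and 80.8 joint CPM in P28 epithelium, against 58.02 and 51.6 in E18.5 epithelium, and 348 and 325 joint CPM in P28 fibroblasts, against 7.57 and 10.1 in E18.5 fibroblasts (difference -4.65 ± 0.60, adjusted p = 1.50e-05). The early components C1s1, C1ra, C2 and C4b rose in fibroblasts alone, C1s1 having 98.1 and 91.7 joint CPM in P28 fibroblasts, against 3.51 and 2.42 in E18.5 fibroblasts. Serping1, the C1 inhibitor, rose in fibroblasts to 7992 and 8289.6 joint CPM, against 3014 and 3276 at E18.5. Chemokines divided: Cxcl12 and Cxcl14 rose in fibroblasts alone, whereas the neutrophil attractants Cxcl1 and Cxcl2 rose in both. The calls of the difference for C1s1, C4b and Cxcl14 were each lost in 2 of 19 other settings. Cxcl2 had 1114 and 767 joint CPM in P28 epithelium, against 27.3 and 56.04 in E18.5 epithelium, and 843 and 672 joint CPM in P28 fibroblasts, against 5.14 and 5.24 in E18.5 fibroblasts. Cxcl16, a transmembrane chemokine, had 1187 and 997 joint CPM in P28 epithelium, against 460.0 and 519 in E18.5 epithelium, and 231 and 262 joint CPM in P28 fibroblasts, against 40.8 and 39.9 in E18.5 fibroblasts, rising more in fibroblasts while staying higher in epithelium.

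Differentiated epithelial genes divided by cell type. Of 23 type 2 genes, 10 rose in epithelium, and 9 had a positive and 1 a negative difference, of which edgeR called 5 of 10. Of all genes, 12.1% rose in epithelium and 5.76% had a positive difference. Sftpa1, a surfactant protein, had 2806 and 2451 joint CPM in P28 epithelium, against 202 and 190.5 in E18.5 epithelium, and Sftpd, another, had 1156 and 819 joint CPM in P28 epithelium, against 169 and 164 in E18.5 epithelium. Sftpc had 12213 and 12598 joint CPM in P28 epithelium, against 3967 and 3257 in E18.5 epithelium. Fibroblast levels of these 3 were 0 and 1.18 (Sftpa1), 0 and 0 (Sftpd) and 4.34 and 1.97 (Sftpc) joint CPM at P28, and 0 and 0, 1.35 and 0 and 7.84 and 2.42 at E18.5. Sftpb and Sfta2 had positive differences through falls in fibroblasts, where Sfta2 had 3189 and 2139 joint CPM in P28 epithelium, against 871 and 1892 in E18.5 epithelium, beside 0.289 and 0 in P28 fibroblasts and 13.5 and 10.5 in E18.5 fibroblasts. At E18.5 these fibroblast levels were 0.869% (Sfta2) and 0.190% (Sftpb) of the epithelial ones, and the part of stray epithelial RNA in the fibroblast libraries was not tested. Abca3, the lipid transporter of lamellar bodies, had no called epithelial change, with 236 and 214 joint CPM in P28 epithelium, against 239 and 243 in E18.5 epithelium.

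Of 20 type 1 genes, 13 fell and 1 rose in epithelium, and 7 had a negative and 3 a positive difference, all also called by edgeR. Of all genes, 11.5% fell in epithelium and 10.8% had a negative difference. Caveolae genes were opposite movers. Cav1 had 27.9 and 35.8 joint CPM in P28 epithelium, against 126 and 125 in E18.5 epithelium, and 25.5 and 26.4 joint CPM in P28 fibroblasts, against 11.1 and 8.06 in E18.5 fibroblasts (difference -3.32 ± 0.35, adjusted p = 1.52e-06), and Cav2 did likewise. Pdpn, the mucin-like podoplanin, had 24.7 and 25.9 joint CPM in P28 epithelium, against 46.9 and 68.6 in E18.5 epithelium, and 20.5 and 14.96 joint CPM in P28 fibroblasts, against 2.70 and 0.403 in E18.5 fibroblasts. Gprc5a, a retinoic acid-induced receptor, had 902 and 771 joint CPM in P28 epithelium, against 2017 and 2065 in E18.5 epithelium, and 49.2 and 47.2 joint CPM in P28 fibroblasts, against 34.6 and 18.1 in E18.5 fibroblasts. S100a6, a calcium-binding protein, rose in fibroblasts alone, with 46.2 and 40.5 joint CPM in P28 epithelium, against 26.3 and 47.4 in E18.5 epithelium, and 51.8 and 48.4 joint CPM in P28 fibroblasts, against 1.62 and 1.61 in E18.5 fibroblasts. Ager, the receptor RAGE, fell in epithelium with 339 and 222 joint CPM in P28 epithelium, against 641 and 653 in E18.5 epithelium. Aqp5, the type 1 water channel, had 2486 and 2069.8 joint CPM in P28 epithelium, against 2681 and 2874 in E18.5 epithelium, with no epithelial change called.

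Of 10 club cell genes, 8 rose and 1 fell in epithelium, against 12.1% and 11.5% of all genes. The difference was positive for 6 and negative for 2, against 5.76% and 10.8% of all genes, and edgeR called 3 of these. Scgb1a1, the secretoglobin of airway club cells, had 2437 and 2647 joint CPM in P28 epithelium, against 53.3 and 58.1 in E18.5 epithelium, and 0 to 1.18 in the fibroblast libraries. In the P28 fibroblast libraries 3 reads are 0.868 and 1.18 joint CPM, so its called fibroblast rise rests on few reads. The call of its difference was lost in 2 of 19 other settings. The 2 negative ones were detoxifying enzymes expressed in both cell types. Aldh1a1, a retinaldehyde dehydrogenase, had 33.9 and 33.9 joint CPM in P28 epithelium, against 3.80 and 7.45 in E18.5 epithelium, and 146 and 125 joint CPM in P28 fibroblasts, against 0.270 and 2.42 in E18.5 fibroblasts, and Gsta3, a glutathione transferase, had 12.3 and 18.5 joint CPM in P28 epithelium, against 1.90 and 1.49 in E18.5 epithelium, and 58.7 and 44.9 joint CPM in P28 fibroblasts, against 0.270 and 0 in E18.5 fibroblasts. Both rose in both cell types and more in fibroblasts.

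Genes of antigen presentation were listed by class. All 9 class II genes tested rose in epithelium, 5 of them in fibroblasts too, against 12.1% and 19.4% of all genes. On the log scale 7 had a positive difference. None of these 7 was called by edgeR or DESeq2, both of which turned the list's median difference negative (-1.07 and -0.430, against 2.22), so no direction of the difference is given. H2-Eb1 was the most abundant, with 12794 and 10208 joint CPM in P28 epithelium, against 201 and 311 in E18.5 epithelium, and 80.2 and 424 joint CPM in P28 fibroblasts, against 2.16 and 2.42 in E18.5 fibroblasts. The P28 fibroblast replicates differed in the same order as the leukocyte sums, and the leukocyte part in these values was not tested. Of 12 class I genes, 7 rose in epithelium and 7 in fibroblasts, and 3 had a negative difference, against 10.8% of all genes. With libraries scaled by total reads alone, or on the values as deposited, 1 of the 3 was called, and the calls of Psmb8 and Tapbp were each lost in 11 of 19 other settings. H2-K1, a classical class I heavy chain, had 79.7 and 88.2 joint CPM in P28 epithelium, against 33.6 and 25.9 in E18.5 epithelium, and 47.2 and 39.4 joint CPM in P28 fibroblasts, against 2.70 and 1.61 in E18.5 fibroblasts, a difference of -2.35 ± 0.39 (adjusted p = 2.15e-04).

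Of 20 glycolysis and hypoxia genes, 7 had a negative difference, against 10.8% of all genes. In epithelium 1 rose and 6 fell, and in fibroblasts 7 rose and 4 fell. The background for every list of this paragraph is 12.1% rising and 11.5% falling in epithelium. In fibroblasts it is 19.4% rising and 13.5% falling. Slc2a1, the glucose transporter GLUT1, was an opposite mover, with 179 and 173 joint CPM in P28 epithelium, against 261 and 377 in E18.5 epithelium, and 275 and 227 joint CPM in P28 fibroblasts, against 162 and 137 in E18.5 fibroblasts. Ndrg1, a hypoxia-induced gene, was another (13.4 and 16.8 joint CPM in P28 epithelium and 47.6 and 41.4 in E18.5 epithelium, 45.1 and 25.6 in P28 fibroblasts and 14.1 and 8.47 in E18.5 fibroblasts). Hk2, hexokinase, rose in fibroblasts alone with 275 and 225 joint CPM in P28 fibroblasts, against 48.9 and 28.6 in E18.5 fibroblasts. Of 76 ribosomal protein genes, 7 had a positive difference, against 5.76% of all genes, and 22 did with libraries scaled by total reads alone. In epithelium 17 rose and 13 fell, and in fibroblasts 7 rose and 34 fell, against 13.5% of all genes that fell there. Their median change was -0.00644 in epithelium and -0.55 in fibroblasts, and the epithelial one turned positive under 3 other scalings (0.00128 to 0.168). Rplp2 and Rps28 rose in both and more in epithelium, Rplp2 by 3.55 ± 0.42 in epithelium and 1.61 ± 0.42 in fibroblasts. The call of the difference was lost in 6 (Rplp2) and 4 (Rps28) of 19 other settings. Of 31 respiratory chain genes, limma, edgeR and DESeq2 called no difference, and 4 had an unadjusted p under 0.05. In epithelium 12 rose and 1 fell. In fibroblasts 4 rose and 2 fell, which is no higher than the background. Of 22 heat shock and endoplasmic reticulum chaperone genes, 12 rose in epithelium, 11 rose and 2 fell in fibroblasts, and 1, Pdia6, had a called difference (0.71 ± 0.22, adjusted p = 0.0317), a call lost in 6 of the 8 fits that left out 1 library. Of 27 lysosomal genes, 9 rose and 1 fell in epithelium, 16 rose and 1 fell in fibroblasts, and 2 had a called difference, both negative, against 10.8% of all genes, so the count of differences is no higher than the background. These were Ctsz, a cathepsin (-1.93), and Lamp1, a membrane glycoprotein of the lysosome (-0.97).

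**Figure D4:**
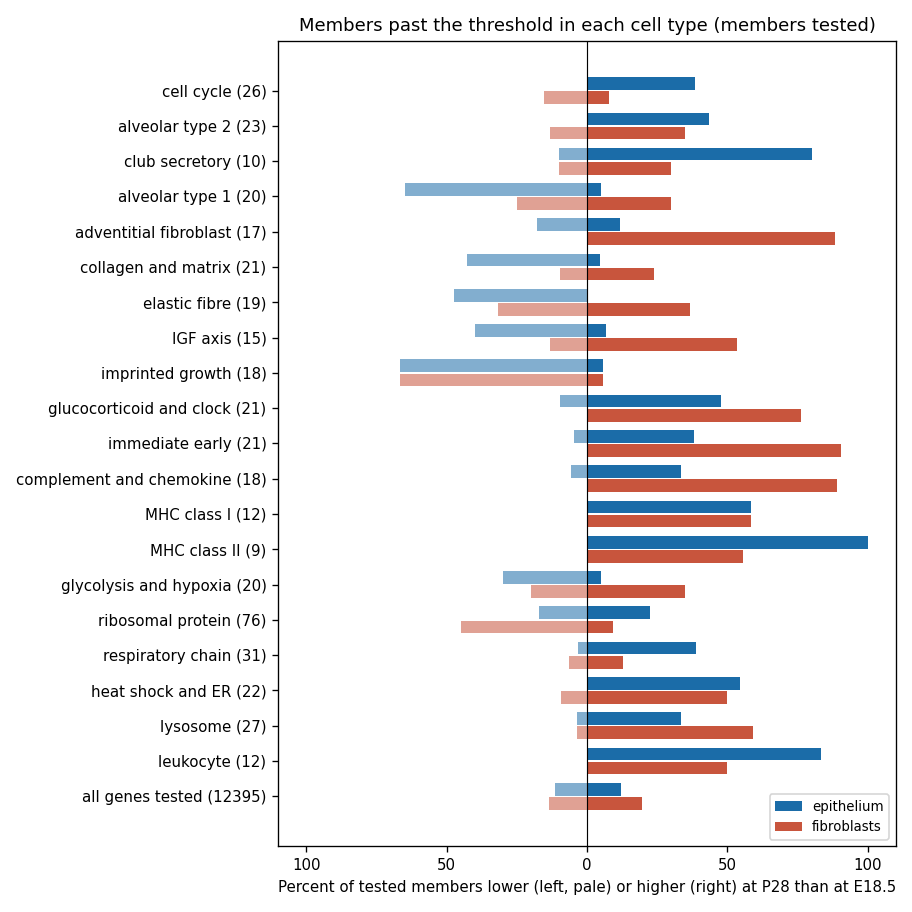
Percent of the tested members of each described list that were called higher (right) or lower (left, pale) at P28 than at E18.5, in epithelium and in fibroblasts, with the number tested in brackets. Each row is a list and the lowest row gives all genes; 10 of 26 cell cycle genes rose in epithelium and 2 in fibroblasts, and 2 of 17 adventitial genes rose in epithelium and 15 in fibroblasts.

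The 2 cell types also shared much of their change. Of the genes tested, 1320 changed in the same direction with both changes called, which is 45.2% of the epithelial and 32.4% of the fibroblast calls. Of these 739 rose (5.96%) and 581 fell (4.69%). The difference was called for 199 of them, and for 336 (121 that rose and 215 that fell) the 95% interval of the difference lay within 1 log2 unit of 0, so that a like change was measured and not only a missed threshold. Genes that rose in both with the largest smaller change were H2-Eb1, Ms4a1, Cd53, Cd3d, Bdnf, Dock10, Palmd, Fyb, Osgin1 and Slfn2. Ms4a1, the B cell antigen CD20, had 59.6 and 84.6 joint CPM in P28 epithelium, against 0 and 0 in E18.5 epithelium, and 15.9 and 67.3 joint CPM in P28 fibroblasts, against 0 and 0 in E18.5 fibroblasts. Cd53, Cd3d, Fyb and Slfn2 are also genes of leukocytes, and the leukocyte sums were higher at P28 in both cell types as given above. Their part in these rises was not tested. Bdnf, the neurotrophin, had 29.98 and 45.8 joint CPM in P28 epithelium, against 0 and 0 in E18.5 epithelium, and 35.01 and 30.3 joint CPM in P28 fibroblasts, against 1.62 and 1.21 in E18.5 fibroblasts. Osgin1, an oxidative stress-induced growth inhibitor, had 29.3 and 32.5 joint CPM in P28 epithelium, against 0.634 and 1.19 in E18.5 epithelium, and 12.2 and 7.48 joint CPM in P28 fibroblasts, against 0 and 0 in E18.5 fibroblasts. Palmd, palmdelphin, had 34.2 and 35.01 joint CPM in P28 epithelium, against 0.634 and 4.17 in E18.5 epithelium, and 45.4 and 37.8 joint CPM in P28 fibroblasts, against 0 and 2.02 in E18.5 fibroblasts. For these 3 genes, named for called rises in both, the P28 libraries were above the E18.5 libraries in each cell type. Of all genes tested, stages did not overlap, in either direction, for 58.9% in epithelium and 62.6% in fibroblasts.

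Genes that fell in both included fetal regulators. Igf2bp3, a fetal RNA-binding protein (chr6:49085223-49214957, minus strand), had 1.06 and 1.65 joint CPM in P28 epithelium, against 99.9 and 137 in E18.5 epithelium, and 0 and 2.36 joint CPM in P28 fibroblasts, against 82.99 and 99.2 in E18.5 fibroblasts. Its changes were -5.66 ± 0.37 in epithelium and -5.64 ± 0.37 in fibroblasts, and the difference of -0.01 ± 0.52 had a 95% interval of -1.09 to 1.07. H19, the imprinted noncoding RNA next to Igf2 (chr7:142575529-142578143, minus strand), had no read in P28 epithelium, against 199 and 174 joint CPM in E18.5 epithelium, and 0.579 and 38.6 joint CPM in P28 fibroblasts, against 949 and 670.5 in E18.5 fibroblasts. Its P28 fibroblast libraries differed widely, and its interval of -3.39 to 1.62 leaves the difference unresolved. Lama5, a chain of basement membrane laminins, had 241 and 234 joint CPM in P28 epithelium, against 2356 and 2716 in E18.5 epithelium, and 33.6 and 35.8 joint CPM in P28 fibroblasts, against 545 and 475 in E18.5 fibroblasts, with an interval of -0.17 to 1.03. Shh, the morphogen that epithelium sends to mesenchyme, had 142 and 146 joint CPM in P28 epithelium, against 920.0 and 847 in E18.5 epithelium, and 0.579 and 0 joint CPM in P28 fibroblasts, against 11.9 and 6.45 in E18.5 fibroblasts. The fibroblast level of Shh at E18.5 was far below the epithelial one, and the part of stray epithelial RNA in it was not tested. Ndufa4l2 and Hif3a, both induced by hypoxia, had 0 and 0 joint CPM in P28 epithelium, against 7.61 and 12.5 in E18.5 epithelium (Ndufa4l2), and 2.47 and 0.827 joint CPM in P28 epithelium, against 30.1 and 31.6 in E18.5 epithelium (Hif3a). In fibroblasts they had 8.97 and 7.87 joint CPM in P28 fibroblasts, against 109 and 56.4 in E18.5 fibroblasts (Ndufa4l2), and 2.60 and 1.97 joint CPM in P28 fibroblasts, against 40.01 and 30.2 in E18.5 fibroblasts (Hif3a). Fbn2, the fetal fibrillin, and Ddah1, which degrades methylarginines, changed by -3.06 ± 0.45 and -3.24 ± 0.41 in epithelium, beside -3.49 ± 0.45 and -3.26 ± 0.41 in fibroblasts. Cldn10, a tight junction claudin, and Zfp618, a zinc finger protein, completed the named genes, with differences of 1.04 ± 0.56 and 0.03 ± 0.48. Cdkn1c had 47.3 and 81.3 joint CPM in P28 epithelium, against 336 and 406 in E18.5 epithelium, and 110.2 and 69.3 joint CPM in P28 fibroblasts, against 404 and 460.0 in E18.5 fibroblasts.

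Among the 199 genes that moved the same way by unequal amounts, 130 rose and 69 fell. Mamdc2, a matrix glycoprotein, rose more in fibroblasts on the log scale, with 0.706 and 2.21 joint CPM in P28 epithelium, against 0 and 0 in E18.5 epithelium, and 1182 and 1160.1 joint CPM in P28 fibroblasts, against 12.2 and 18.9 in E18.5 fibroblasts. Aldh1a7, an aldehyde dehydrogenase, had 42.3 and 32.3 joint CPM in P28 epithelium, against 12.7 and 11.6 in E18.5 epithelium, and 124 and 91.3 joint CPM in P28 fibroblasts, against 1.08 and 0.403 in E18.5 fibroblasts. Klrd1, a receptor of natural killer cells, rose more in epithelium on the log scale (71.3 and 80.2 joint CPM in P28 epithelium and 0 and 0 in E18.5 epithelium). For Mamdc2 and Klrd1 the size of the difference depends on the pseudocount, because E18.5 epithelium had no read. Their calls were each lost in 2 of 19 other settings. Ror2, a Wnt5a receptor, fell more in epithelium, with 0 and 0 joint CPM in P28 epithelium, against 34.9 and 31.3 in E18.5 epithelium, and 47.7 and 36.6 joint CPM in P28 fibroblasts, against 82.2 and 95.1 in E18.5 fibroblasts. Aspg, an asparaginase homologue, fell more in fibroblasts, with 1.06 and 0.276 joint CPM in P28 epithelium, against 2.22 and 5.37 in E18.5 epithelium, and 1.45 and 1.97 joint CPM in P28 fibroblasts, against 212 and 123 in E18.5 fibroblasts.

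The 3 stages between the ends (P0.5, P2 and P7) show at which steps the changes of the cell types differed. The difference of a single step was called for 455 genes at the step to P0.5, 671 at the step to P2, 223 at the step to P7 and 1154 at the step to P28. Fstl1 had means of 7923, 1309.8, 1526, 363 and 15.9 joint CPM in epithelium over the 5 stages in order, and 4905, 2831, 11769, 5738 and 4626 in fibroblasts. Its step difference was called at P0.5 (-1.81), P2 (-1.86) and P28 (-4.11). Epithelial Fstl1 was thus lower at P0.5 than at E18.5 and lower again at P7 and P28, while fibroblast Fstl1 was highest at P2. Igfbp6 had 4581, 2428, 479, 435 and 839 in epithelium and 162, 643, 194, 312 and 3364 in fibroblasts over the same stages, with called differences at P0.5 (-2.91) and P28 (-2.49). The fibroblast level was therefore high at P28 only, apart from a smaller peak at P0.5. Enpep had 9.87, 38.7, 112, 156 and 193 in epithelium, higher at each stage, and 456, 282, 974, 854 and 248 in fibroblasts, highest at P2, with called differences at P0.5 (2.57) and P28 (2.10). Rian had 2651, 851, 603, 532 and 33.9 in epithelium and 282, 162, 411, 93.02 and 177 in fibroblasts. Its differences were called at P2 (-1.83), P7 (1.97) and P28 (-4.87), with opposite signs at P7 and P28. Igf2r had 133, 114, 102, 103 and 113 in epithelium and 1193, 539.6, 457, 330.4 and 132 in fibroblasts, with called differences at P0.5 (0.91) and P28 (1.45). Igf2bp3 had 118, 102, 72.4, 57.8 and 1.36 in epithelium and 91.1, 79.99, 83.1, 22.6 and 1.18 in fibroblasts, with no step difference called. Tk1 had 13.1, 5.01, 11.6, 69.1 and 57.9 in epithelium and 24.7, 9.45, 22.4, 68.05 and 9.08 in fibroblasts, so that both cell types were high at P7 and epithelium alone at P28, the step with a called difference (2.49). Of these 7 genes, Igfbp6, Enpep and Igf2r had called differences at the same steps, P0.5 and P28.

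**Figure D5:**
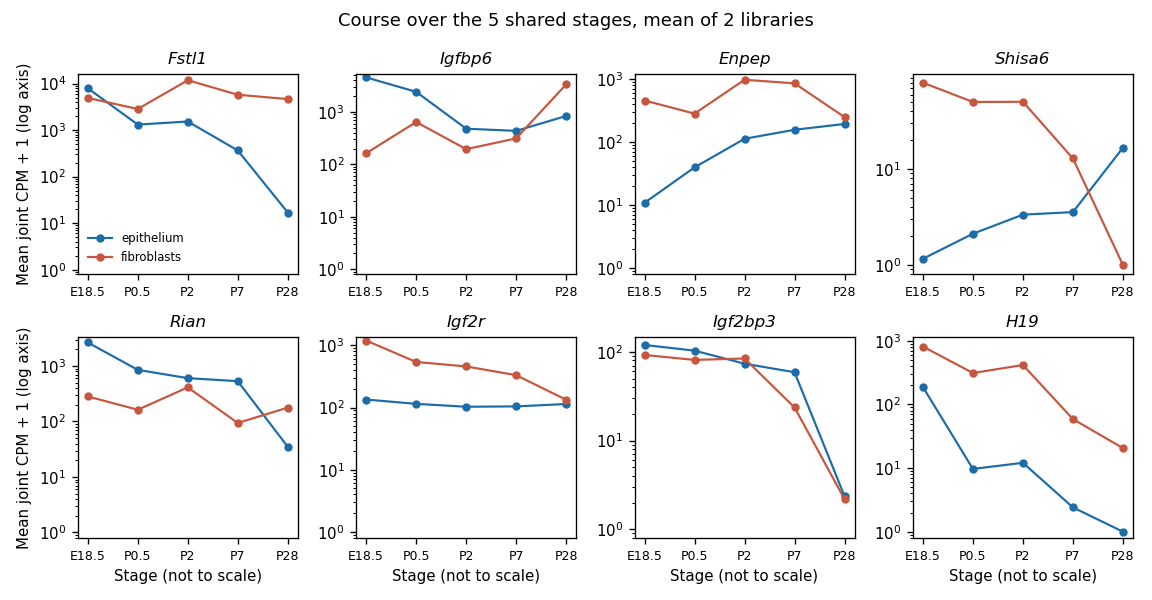
Mean levels of 8 named genes at the 5 shared stages, on a log axis of joint CPM + 1. Points are means of 2 libraries, in epithelium and in fibroblasts, and stages are evenly spaced; Fstl1 is at 7923, 1309.8, 1526, 363 and 15.9 in epithelium and 4905, 2831, 11769, 5738 and 4626 in fibroblasts over the 5 stages.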

How the data were processed

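Per the labels' protocols, RNA of sorted lung cells was amplified, and tags from the 3' ends of polyadenylated transcripts (3' SAGE) were sequenced on the Ion Proton. The submitters' processing notes name Bowtie2 2.2.5, R 3.4.0 and build mm10. The deposited values are a normalised signal per gene that the authors made, 1 table column per library, with no unit given. They were whole multiples of 1 read's worth in every library (100% of values, tolerance 0.01 reads), so reads were recovered from them. Reads of the 20004 genes in both cell types' tables were scaled with TMM over the 20 libraries of the 5 shared stages, giving joint CPM. The single P56 fibroblast library was not used.

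Differences were tested with limma 3.58.1 (R 4.3.3, mean-variance trend) on log2(joint CPM + 1). The fit had 10 group means and 10 residual degrees of freedom, over genes with at least 3 joint CPM in 2 of the 8 contrast libraries. Tests were two-sided, with Benjamini-Hochberg adjustment over 12395 genes at 0.05. edgeR had been planned for raw counts. Because the unit was normalised it became an alternative (edgeR 4.0.16, DESeq2 1.42.0), and the alternatives are listed with their effects in the closing section.

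Named genes had at least 20 joint CPM in the highest group and no predicted or clone name. They were the 12 largest differences of each sign, 8 opposite movers of each kind, 10 shared genes per direction, 5 unequal ones per direction, the 8 largest of each sign among genes expressed in both, and at most 4 of each list. Other list members are given as chosen after their values were seen. The members and lists were chosen with earlier results of these data known. Coordinates are from GENCODE vM21 and promoters from RefSeq (GRCm38.p6). The tests were checked on simulated data. Depth limits precision for genes of few reads, and statements on reads cover counting error only.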

Additional observations from a re-analysis of the deposited data

Results flagged for a closer look

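The change between E18.5 and P28 differed between epithelium and fibroblasts for the genes below, by a test of the difference itself as an interaction term (limma, adjusted p under 0.05). The values are that difference on the log2(joint CPM + 1) scale, epithelium minus fibroblasts, for the named genes that passed. No group has the 4 libraries that a test for a single outlying library needs. Genes that rose in epithelium and fell in fibroblasts were Shisa6 (10.16), Havcr1 (7.63), Enpep (5.04), Il16 (4.64), Sms (4.04), Adam19 (4.28), Plekho1 (3.35), Clip2 (3.20), Plin2 (2.91) and Tk1 (3.53). Genes that fell in epithelium and rose in fibroblasts were Msln (-8.64), Tecrl (-7.82), Aqp1 (-7.06), Igfbp6 (-6.83), P2rx6 (-6.45), Adamtsl5 (-6.41), Kdr (-5.09), Zfp521 (-5.34), Ank (-4.24), Gper1 (-4.60), Cav1 (-3.32), Pdpn (-4.16), Gprc5a (-2.21) and Col1a1 (-3.99). Others of this kind were Col3a1 (-2.85), Ltbp4 (-5.18), Fbln1 (-4.10), Ltbp1 (-4.27), Cygb (-5.20), Ndrg1 (-3.06), Slc2a1 (-1.57), Igfbp5 (-5.05) and Col1a2 (-2.91). Genes that rose in epithelium with no called fibroblast change were Scgb3a1 (7.91), Il12b (6.47), Alb (5.19), Basp1 (4.85), Cyp2b10 (4.71), Havcr2 (4.62), Gins2 (4.30), Sftpa1 (3.17), Sftpd (3.16), Mcm3 (3.11), H2-DMb1 (3.66), H2-Ob (2.54) and Il1b (3.31). Genes that fell in epithelium with no called fibroblast change were Fstl1 (-8.78) and Meg3 (-4.13). Genes that rose in fibroblasts with no called epithelial change were Col15a1 (-7.17), Sod3 (-7.00), Hr (-6.52), Pi16 (-5.98), Tnfsf13b (-5.78), S100a6 (-4.00), Sparc (-1.97), Mfap5 (-3.80), Gsn (-3.94), Tapbp (-1.14), C1s1 (-4.39), C3 (-4.65), C4b (-4.46) and Cxcl14 (-4.72). Others of this kind were Atf3 (-2.22), Fosl2 (-1.60), Egr2 (-2.08), Nr1d1 (-5.05), Tef (-2.08), Tsc22d3 (-1.91), Hk2 (-2.17), Pfkp (-2.86), Igfbp7 (-3.01), Ctsz (-1.93) and Lamp1 (-0.97). Genes that fell in fibroblasts with no called epithelial change were Camk1g (4.96), Sfta2 (4.53), Cd24a (4.05), Cenpe (2.91), Igf2r (2.93), Rpl14 (0.96), Rps9 (0.94) and Pdia6 (0.71). Genes that rose in both by unequal amounts were Mamdc2 (-4.95), Scgb1a1 (4.60), Aldh1a7 (-4.44), Mt2 (-4.06), Klrd1 (4.06), Ccl5 (3.65), Lyz2 (2.77), Gsta3 (-2.95), Aldh1a1 (-3.58), Rps28 (1.55), Rplp2 (1.95), H2-Aa (3.11), H2-Ab1 (3.26) and H2-K1 (-2.35). Others of this kind were Psmb8 (-1.25) and Klf4 (-1.94). Genes that fell in both by unequal amounts were Col25a1 (6.66), Rian (-5.58), Dlk1 (-4.61), Aspg (4.43) and Ror2 (-4.03). The class II genes H2-Aa, H2-Ab1, H2-DMb1 and H2-Ob were not called by edgeR or DESeq2, which gave -1.11 and -0.43 for H2-Aa and -1.07 and -0.40 for H2-Ab1, so their calls above hold for limma on the log scale alone. Ccl5 also turned negative with both tools, and the calls of Psmb8 and Tapbp were each lost in 11 of 19 other settings. Calls were lost in 8 settings for Il1b, 6 each for Pdia6, Cenpe and Rplp2, 4 for Rps28 and 3 for Havcr2. They were lost in 2 settings each for C4b, Camk1g, Cxcl14, C1s1, Scgb3a1, Scgb1a1, Lyz2, Cyp2b10, Klrd1, Sftpa1 and Mamdc2. Col25a1, Il12b, Lamp1 and Rps9 lost theirs in 1 setting each. The fibroblast rise of Scgb1a1 rests on few reads.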

How the results depend on the processing

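Across 19 other settings the interaction calls numbered 1369 (DESeq2) to 2476 (pseudocount 5), against 2049, and no gene called in both the main fit and another setting changed sign. The split of calls was 800 positive and 1193 negative on the values as deposited, and 1070 and 1079 with total reads only. Leaving out 1 library at a time gave 1441 to 1691 interaction calls, 130 to 164 opposite movers, 1798 to 2969 epithelial and 2902 to 4094 fibroblast changes, 864 to 1154 genes that moved together (1320 in the main fit) and 1135 to 1328 that moved in 1 cell type (1564). Epithelial changes fell to 1913 without E18.5 replicate 1 and to 1798 without P28 replicate 2, against 2923, and shared genes to 864 without P28 epithelial replicate 2. Genes that moved in 1 cell type numbered 1005 with edgeR and 979 with DESeq2; the cause was not tested. Of 142 named results, 112 kept direction and side of the threshold in all 19 settings. The sign of the difference reversed for Ccl5 (-1.09 with edgeR, -0.45 with DESeq2), H2-Aa (-1.11 and -0.43), H2-Ab1 (-1.07 and -0.40) and, with edgeR, Sftpa1 (-0.0602); none of these was called there, and all had no read in E18.5 fibroblasts. The median of the leukocyte list turned to -0.13 and -0.11, against 0.96. Replicate numbers did not pair the samples, with correlations of -0.06 to 0.02 between the 4 groups, and a replicate block gave 2035 calls and 189 opposite movers.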
